A study of Homo sapiens with 3 samples.

Results

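The genes described here are those whose transcript level set KKU-213L5 (L5) apart from both cultures of its parent line, KKU-213. A gene was taken where its deposited status was OK in all 3 libraries, where it reached 1 FPKM (a fragment count scaled by transcript length and library size) in at least 1 of them, and where log2(FPKM + 1) in L5 lay above both parents, or below both, by 1 or more from the nearer parent. Of 13873 genes tested, 134 were higher in L5 by this rule (0.966%) and 33 were lower (0.238%), 167 in all (1.2%). These shares come from the rule itself and are a description.

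The parent KKU-213 is a long-established line of human intrahepatic cholangiocarcinoma, which arises in bile ducts inside the liver, and its L5 subline is known for frequent metastasis. The groups were KKU-213 in medium with 5.6 mM glucose (NG), KKU-213 in 25 mM glucose (HG) and KKU-213L5 in 25 mM glucose (L5), each given as past 5 passages, grown in DMEM with fetal bovine serum and collected at confluence. HG and L5 therefore share the glucose level, while NG and L5 differ in both glucose and line, and the labels do not say how the subline was made. With 1 library per group there is no test across cultures and no p-value, and every difference below describes these 3 libraries. By the deposited coverage NG held 47.1 M fragments, HG 76.0 M and L5 68.7 M. Of 20 cholangiocyte markers found, 10 (NG), 11 (HG) and 11 (L5) reached 1 FPKM, with summed levels of 1679, 1589 and 1758 FPKM. Of 21 hepatocyte markers, 2, 1 and 1 did so in NG, HG and L5 (sums of 80.0, 28.3 and 36.8 FPKM, with 11, 13 and 10 genes at 0). Of 14 fibroblast markers 1 did so in each library (sums of 8.56, 3.72 and 3.44 FPKM).

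Sublines of a carcinoma that differ in spread often differ in genes of cell attachment, of the pericellular proteases and their inhibitors, and of growth factor signalling. Bile duct cells are a simple epithelium, which carries keratins 7, 8, 18 and 19 and not the keratins of layered epithelia. Serpins block proteases, and those of clade B act mostly inside the cell. Cancer-testis genes, many of them on the X chromosome, are silent in most adult tissues outside the testis and are often active in tumours.

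Among the genes higher in L5, the leading coding genes included a detoxifying dehydrogenase, a melanoma antigen gene and genes of layered epithelia. ALDH3A1 (ENSG00000108602, GRCh37 chr17:19641297-19652256), an aldehyde dehydrogenase of cornea and stomach, was listed at 0.0791 (NG), 0.221 (HG) and 38.3 (L5) FPKM. It was close to 0 in both parents, and the L5 level was 173 times that of HG. The log2 difference from HG, the nearer parent, was 5.01 ± 0.09, where ± is the counting standard error from the deposited FPKM intervals and says nothing of the spread between cultures. In 11 of the 55 genes named by the rule used here, ALDH3A1, SERPINB2, KLF6, COL17A1, MGST1, S100A9 and PAGE1 among them, the deposited interval did not hold the FPKM itself in at least 1 library (in L5, 33.4 to 36.5 for ALDH3A1). Their ± is therefore less sure. DHRS9 (ENSG00000073737, chr2:169921299-169952677), a retinol dehydrogenase, was listed at 0.221 (NG), 0.192 (HG) and 7.85 (L5) FPKM. Here too both parents were near 0 (log2 difference 2.86 ± 0.10). MAGEA11 (ENSG00000185247, chrX:148769894-148798926), a cancer-testis gene whose protein binds the androgen receptor, was listed at 0.0371, 0.219 and 12.1 FPKM in NG, HG and L5 (3.42 ± 0.07).

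**Figure D1:**
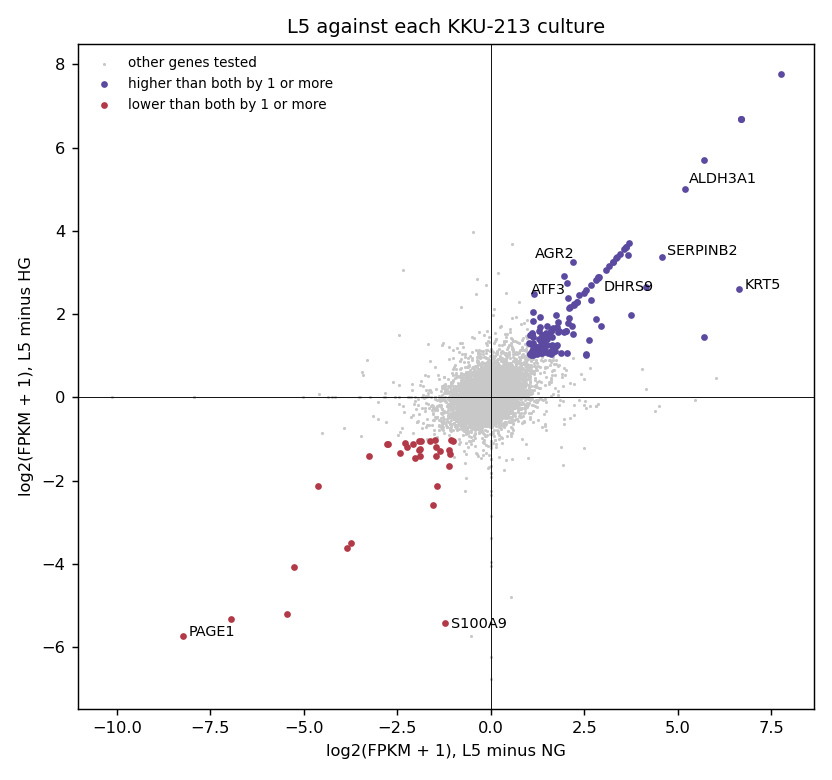
Difference in log2(FPKM + 1) between L5 and NG (x axis) and between L5 and HG (y axis) for the 13873 genes tested, 1 point per gene. The 134 genes higher in L5 than both cultures by 1 or more lie in the upper right and the 33 lower ones in the lower left, with ALDH3A1, KRT5 and PAGE1 far out.

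SERPINB2, KRT5 and SPRR1B were graded across the libraries, lowest in NG, intermediate in HG and highest in L5. SERPINB2 (ENSG00000197632, chr18:61538926-61571124), plasminogen activator inhibitor 2, was listed at 1.18 (NG), 4.03 (HG) and 51.4 (L5) FPKM. Its log2 difference from HG was 3.38 ± 0.07, and that of HG from NG was 1.21. KRT5 (ENSG00000186081, chr12:52908359-52914471), the basal keratin of layered epithelia, was listed at 1.71 (NG), 43.3 (HG) and 270 (L5) FPKM. Most of its distance from NG was already present in HG, with a log2 difference of 4.03 between the parents and a further 2.61 ± 0.04 between HG and L5. SPRR1B (ENSG00000169469, chr1:153003678-153005376), a precursor of the cornified envelope, was listed at 1.97, 7.39 and 52.0 FPKM in NG, HG and L5 (2.66 ± 0.15). AGR2 (ENSG00000106541, chr7:16831435-16873057), a protein disulfide isomerase of secretory epithelia, had the other order of the parents, at 44.3 (NG), 20.8 (HG) and 206 (L5) FPKM. L5 stood 2.19 ± 0.06 above NG and 3.24 above HG on the log2 scale.

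The promoters of SERPINB2 and SPRR1B are shown as examples with AP-1 letters. That of AREG, an epidermal growth factor receptor ligand, is shown as an example with a cyclic AMP response element. Matches in these promoters were fixed by that choice. Each is the 250 bases before the transcription start in the RefSeq tables on GRCh38.p14, plus strand, written 5′ to 3′. They lie at chr18:63887455-63887704, chr1:153030953-153031202 and chr4:74444886-74445135 respectively. Capitals mark the AP-1 letters TGANTCA in the first pair and the response element TGACGTCA in AREG.
SERPINB2: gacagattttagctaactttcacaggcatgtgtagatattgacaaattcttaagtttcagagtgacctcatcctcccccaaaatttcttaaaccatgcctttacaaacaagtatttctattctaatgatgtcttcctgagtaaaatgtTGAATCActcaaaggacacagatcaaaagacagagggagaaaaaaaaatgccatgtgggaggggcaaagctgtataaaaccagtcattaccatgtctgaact
SPRR1B: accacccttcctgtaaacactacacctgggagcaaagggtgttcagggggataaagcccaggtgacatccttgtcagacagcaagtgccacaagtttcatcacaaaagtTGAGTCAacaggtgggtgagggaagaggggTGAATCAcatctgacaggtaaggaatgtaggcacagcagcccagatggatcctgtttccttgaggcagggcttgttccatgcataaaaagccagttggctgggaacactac
AREG: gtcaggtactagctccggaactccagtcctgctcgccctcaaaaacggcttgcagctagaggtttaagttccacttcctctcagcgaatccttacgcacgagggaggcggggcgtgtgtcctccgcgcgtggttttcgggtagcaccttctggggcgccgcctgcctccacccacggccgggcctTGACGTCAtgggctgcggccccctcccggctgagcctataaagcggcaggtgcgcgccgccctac
The tables held an entry for 39 of the 45 named higher and 6 of the 10 named lower genes, some with several starts. SERPINB2 held 1 AP-1 match, starting at position -102 from the transcription start, and SPRR1B held 2, the first of them at -141. Read on both strands, AP-1 letters occurred in 5 of 65 RefSeq promoters of the named higher genes (7.69%) and in 6.57% of all 35116 promoters. The response element occurred in 3 of 65 (4.62%) and 1.65%. Those 3 come from AREG and from overlapping promoters of ST3GAL5 that hold the same site, so they are not separate sites. Antioxidant response element letters (TGACNNNGC) occurred in 10.8% and 10.9%, and TGATGNAA, letters of the composite C/EBP-ATF element, in 3.08% and 3.14%. TATAAA occurred in 15.4% and 10.7%. The 8 promoters of lower genes held 2 with TATAAA and 0 with any of the other letters. A match is a run of letters and not a measured binding site.

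**Figure D2:**
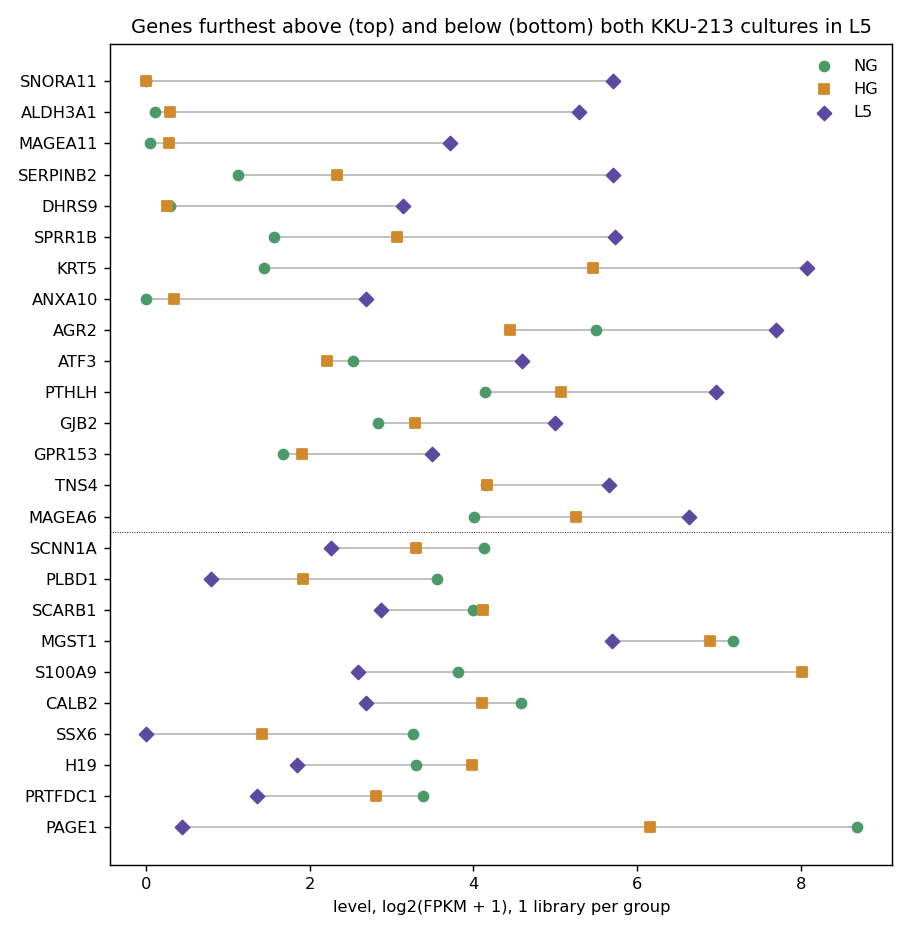
Level as log2(FPKM + 1) in NG (circle), HG (square) and L5 (diamond), 1 library each, for the 15 named genes furthest above both parents and the 10 furthest below, divided by the dotted line. KRT5, SERPINB2 and SPRR1B are graded from NG to HG to L5, whereas both parents of ALDH3A1 and DHRS9 lie together near 0.

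The remaining genes of the leading 15 were of several kinds. ATF3 (ENSG00000162772, chr1:212738676-212794119), a stress-induced transcription factor, was listed at 4.75 (NG), 3.62 (HG) and 23.1 (L5) FPKM (2.07 ± 0.09 above NG, the nearer parent). PTHLH (ENSG00000087494, chr12:28111017-28125638), parathyroid hormone-related protein, was listed at 16.7, 32.5 and 123 FPKM in NG, HG and L5 (1.89 ± 0.04). GJB2 (ENSG00000165474, chr13:20761609-20767037), the gap junction protein connexin 26, was listed at 6.12, 8.74 and 31.0 FPKM (1.72 ± 0.05). In each of these the parents lay closer to each other than either lay to L5. TNS4 (ENSG00000131746, chr17:38632080-38657849), a focal adhesion protein, was equal in the parents, at 16.9 FPKM in each, and listed at 49.3 in L5 (1.49 ± 0.05). GPR153 (ENSG00000158292, chr1:6307406-6321035), an orphan receptor, was listed at 2.20, 2.74 and 10.3 FPKM (1.59 ± 0.06). MAGEA6 (ENSG00000197172, chrX:151867214-151870825), a near-identical copy of MAGEA3, was listed at 15.03, 37.0 and 98.1 FPKM (1.38 ± 0.04), and how the authors divided fragments between the copies is not given in the sources used here. ANXA10 (ENSG00000109511, chr4:169013666-169108841), an annexin of gastric epithelium, was listed at 0 (NG), 0.272 (HG) and 5.45 (L5) FPKM. A copy of SNORA11 (ENSG00000221164), a small nucleolar RNA of 128 nt, was listed at 0 in both parents and at 51.4 FPKM in L5, far outside its own deposited interval of 0.230 to 1.95, and such values of short RNAs are treated separately below. Scaled by the spike-in controls, 13 of the 45 named higher genes, all of the leading 15 but TNS4 and MAGEA6, keep a difference of 1 or more. The remaining 32 still lie above both parents, by 0.27 to 0.97.

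Signalling genes among the other named higher members covered ligands, receptors and transcription factors. AREG was listed at 25.0 (NG), 74.0 (HG) and 151 (L5) FPKM (1.02 ± 0.04), and its near-identical copy AREGB at 22.3, 65.3 and 135 (1.03 ± 0.03). These 2 entries cannot be counted as separate genes. PDGFA, a platelet-derived growth factor, was listed at 3.38, 4.32 and 10.2 FPKM, and JAG1, a Notch ligand, at 14.5, 14.8 and 32.1. HES1, a transcriptional repressor induced by Notch, was listed at 23.1, 16.7 and 50.3 FPKM. The log2 difference from the nearer parent was 1.07 ± 0.03 for JAG1 (from HG) and 1.09 ± 0.06 for HES1 (from NG), and that of HES1 from HG was 1.54. The lysophosphatidic acid receptor LPAR1 was listed at 17.97, 19.5 and 46.0 FPKM, and PTGER4, a prostaglandin E2 receptor, at 2.82, 6.51 and 14.8. KLF6, a zinc-finger transcription factor, was equal in the parents at 22.8 and 22.9 FPKM and listed at 59.1 in L5 (1.33 ± 0.04). FOSB, an AP-1 subunit, was listed at 8.67, 6.08 and 18.9 FPKM (1.04 ± 0.05). TNFAIP3, a deubiquitinase that restrains NF-kB, was listed at 6.12, 11.6 and 25.2 FPKM (1.06 ± 0.05), and RGS2, which restrains G-protein signalling, at 5.28, 5.83 and 14.6.

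Matrix, adhesion and protease-inhibitor genes were also among the named higher genes. COL17A1, the hemidesmosomal collagen that ties basal keratinocytes to the basement membrane, had the most fragments behind it of the named higher genes and was listed at 72.8 (NG), 84.0 (HG) and 182 (L5) FPKM (1.10 ± 0.02). COL4A6, a basement membrane collagen, was listed at 3.12, 3.63 and 10.2 FPKM. SERPINE2, protease nexin 1, was listed at 10.3, 4.97 and 23.9 FPKM (1.14 ± 0.07), and IGFBP3, a carrier of insulin-like growth factors, at 7.88, 4.88 and 21.2 (1.32 ± 0.07). FBLIM1, a filamin-binding protein of cell-matrix contacts, was listed at 4.83, 7.02 and 15.7 FPKM. For SERPINE2 and IGFBP3 the parents stood in the order NG above HG, and for COL4A6 and FBLIM1 in the order HG above NG.

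Metabolic and transport genes were among them too. SLC7A11, the cystine transporter, was listed at 11.5 (NG), 10.0 (HG) and 26.2 (L5) FPKM (1.12 ± 0.03). AKR1C2, an aldo-keto reductase with close paralogues, was listed at 15.5, 15.3 and 36.9 FPKM (1.20 ± 0.06). MAOA, monoamine oxidase A, was listed at 8.59, 13.2 and 29.2 FPKM, and CDA, cytidine deaminase, at 6.71, 10.0 and 25.0. HS3ST1 and ST3GAL5, a heparan sulfate sulfotransferase and the sialyltransferase that makes the ganglioside GM3, were listed at 8.13, 7.47 and 21.5 FPKM and at 1.13, 1.99 and 6.21 FPKM. KCNMA1, the large-conductance potassium channel, was listed at 1.99, 1.30 and 6.45 FPKM. The named higher genes not given with values are WDR72, CRIP1, AHNAK2, CARD16, ZBED2, GNG2 and ABHD4, whose log2 differences lay between 1.04 and 1.34. CARD16 overlaps other genes at its locus.

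Of the genes lower in L5, PAGE1 (ENSG00000068985, chrX:49452053-49460596), a cancer-testis gene, lay furthest below. It was listed at 411 (NG), 70.4 (HG) and 0.356 (L5) FPKM, the last from about 16.3 fragments. HG exceeded L5 198 times, and the log2 difference from HG was -5.72 ± 0.12. SSX6 (ENSG00000171483, chrX:47967365-47980073), a pseudogene of another cancer-testis family, was listed at 8.59 (NG), 1.67 (HG) and 0 (L5) FPKM. Both were also lower in HG than in NG. In bulk RNA, fewer cells with a transcript and less of it per cell cannot be told apart.

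The other named lower genes were of several kinds. S100A9 (ENSG00000163220, chr1:153330330-153333503), a subunit of calprotectin, was listed at 13.0 (NG), 257 (HG) and 5.01 (L5) FPKM. On the log2 scale L5 differed by -1.22 ± 0.19 from NG and by -5.43 from HG, so its distance from the parent in the same medium was the larger. H19 (ENSG00000130600, chr11:2016406-2022700), an imprinted non-coding RNA, was listed at 8.83, 14.8 and 2.60 FPKM (-1.45 ± 0.15). MGST1 (ENSG00000008394, chr12:16500076-16762193), a microsomal glutathione transferase, was listed at 143, 117 and 50.9 FPKM (-1.19 ± 0.05). It had the highest L5 level of the named lower genes. SCARB1 (ENSG00000073060, chr12:125261402-125367214), the receptor for high-density lipoprotein, was listed at 15.01, 16.4 and 6.32 FPKM (-1.13 ± 0.07). SCNN1A (ENSG00000111319, chr12:6456009-6486896), the alpha subunit of the epithelial sodium channel, was listed at 16.5, 8.82 and 3.79 FPKM (-1.04 ± 0.15). CALB2 (ENSG00000172137, chr16:71392616-71424341), the calcium-binding protein calretinin, was listed at 23.01, 16.2 and 5.47 FPKM (-1.41 ± 0.07). PRTFDC1 (ENSG00000099256, chr10:25137536-25241533), a phosphoribosyltransferase-like protein, was listed at 9.47, 6.04 and 1.57 FPKM (-1.46 ± 0.12). PLBD1 (ENSG00000121316, chr12:14656595-14721283), a phospholipase B-like protein, was listed at 10.7, 2.77 and 0.733 FPKM (-1.12 ± 0.12). Of the 10 named lower genes, HG was below NG as well in 7 (70.0%, against 61.1% of all genes tested). On chromosome 12, which held 5.46% of all genes tested, lie 4 of the 10. Spike-in scaling kept all 10 past the size, but it lowers L5 against both parents, so this outcome was fixed in advance.

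At the edge of the rule, ABHD4, AREGB and AREG lay just inside at log2 differences of 1.04, 1.03 and 1.02. TMPRSS11E, PYGB and IL8 lay just outside at 1.00, 0.98 and 0.97. On the lower side SCARB1, PLBD1 and SCNN1A were just inside at -1.13, -1.12 and -1.04, and GATM, ACTL8 and SLC43A3 just outside at -0.88, -0.86 and -0.85.

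The members were uneven in kind. Of the 167, 87 matched a protein-coding entry (52.1%, against 80.8% of all genes tested), and 51 had a longest isoform under 300 nt (39 higher, 12 lower), a class that made up 1.96% of the genes tested. Of the 35 members at 0 FPKM in both parents 33 were such short RNAs, and 3 RNAs of 107 nt shared a single value of 101 FPKM in L5. The deposited L5 interval was separate from those of both parents for 2 of the 51 short members and for 93 of 95 higher and 19 of 21 lower members of 300 nt or more. These longer members were 0.698% and 0.154% of the genes of that length, and members with separate intervals were 0.685% and 0.137% of all genes tested. The values of RNAs this short in a poly-A library are not read further. Besides the 55 named genes (45 higher, 10 lower) and 50 unnamed short RNAs, 54 longer members stayed under 5 FPKM in every library, 6 had clone-based symbols, and 2 had an interval that overlapped a parent's. Among those under 5 FPKM, chosen here after their values were seen, were CDH18 and VAV1. CDH18, a cadherin best known from neurons, was listed at 0.116 (NG), 0.0373 (HG) and 4.67 (L5) FPKM. VAV1, a guanine nucleotide exchange factor of blood cells, was listed at 0.416, 0.227 and 3.04 FPKM. Of 14 leukocyte and endothelial markers found, 1 (NG), 2 (HG) and 2 (L5) reached 1 FPKM, with summed levels of 14.2, 17.4 and 18.8 FPKM, and their part in the VAV1 value was not tested.

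Whether the genes of L5 also differed between the parents was read from HG and NG. Of the 45 named higher genes HG exceeded NG in 30 (66.7%, against 38.7% of all genes tested) and lay below it in 14 (31.1%, against 61.1%), and 1 was at 0 in both. In 30 of the 45 the parents lay within 0.5 of each other on the log2 scale (66.7%), against 79.8% of all genes tested. The share was 82.1% of all 134 higher genes, 35 of which were at 0 in both parents. It was 80.0% of the 95 longer higher members. The lower share was therefore that of the named genes and not of the higher genes as a whole. HG exceeded NG by 1 or more in 6 of the 45 (13.3%, against 1.59% of all genes tested). It lay below NG by that much in 2 (4.44%, against 3.14%). These shares were 6.72% and 1.49% of all 134 higher genes, and 6.32% and 2.11% of the 95 longer ones. The median difference of HG from NG was 0.17 for the 45 and -0.09 for all genes tested. HG and NG also set the nearer parent in the rule, so these counts are not independent of it. By the same rule, 302 genes set NG apart from the other libraries (2.18%), with 201 above (1.45%) and 101 below (0.728%). For HG this was 126 (0.908%), with 53 above (0.382%) and 73 below (0.526%). Against a single parent, 274 genes were higher in L5 than in HG (1.98%) and 104 lower (0.75%), while 316 were higher than in NG (2.28%) and 337 lower (2.43%). The 3 counts share libraries, and by the labels L5 differs from HG in line alone, while NG differs from both in medium.

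Gene groups around the leading members were described by how many of their tested genes lay above or below both parents, beside 25.3% above and 37.3% below among all genes tested. Scaling by the spike-in controls moves the median log2 difference of all genes on the main chromosomes to -0.81 against NG and -0.34 against HG, from -0.09 and 0.00, and leaves 2.60% of them above both parents and 83.1% below. The counts under that scaling, given for the groups described, are to be read against those shares. Genes named within these groups beyond the named members were chosen after their values were seen.

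Among AP-1 and immediate early genes, 15 of 22 lay above both parents and 0 below, with 3 past the size of 1 (ATF3, KLF6 and FOSB), and under spike-in scaling 5 lay above and 8 below, with the median against NG moving from 0.35 to -0.44. JUN, an AP-1 subunit, was listed at 17.4 (NG), 15.6 (HG) and 22.8 (L5) FPKM, while FOS and FOSL1 in L5 lay between the parents. Among EGF ligands and receptors, 6 of 8 lay above both and 0 below, 1 of them past the size, against 3 above and 3 below of 9 under spike-in scaling. The ligands HBEGF and EREG were listed at 11.8, 23.3 and 41.6 FPKM and at 37.0, 69.4 and 122 FPKM in NG, HG and L5, and EGFR, their receptor, at 27.7, 28.0 and 42.2. The 3 ligands AREG, EREG and HBEGF were thus each graded from NG to HG to L5, while EGFR was close to equal in the parents. Among the MAPK brakes 8 of 15 lay above both and 3 below, against 4 and 7 under spike-in scaling, with the phosphatase DUSP6 at 61.1, 65.4 and 114 FPKM.

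The plasminogen system and serpins had 8 of 11 genes above both parents and 0 below, 2 of them past the size, against 5 above and 2 below under spike-in scaling. SERPINB5 (maspin) was listed at 53.9, 46.3 and 104 FPKM. Urokinase itself, PLAU, was listed at 260, 138 and 264 FPKM, which put L5 level with NG and above HG. Of the annexins, 11 of 12 lay above both and 0 below, with medians of 0.64 against NG and 0.58 against HG, but under spike-in scaling 4 lay above and 2 below, with medians of -0.19 and 0.17. ANXA1 and ANXA2, abundant membrane-binding proteins, were listed at 842, 767 and 1371 FPKM and at 892, 1224 and 1883 FPKM. ANXA8 and its 2 near-identical copies held 3 of the 11 and are not separate evidence. Hemidesmosome and laminin genes had 9 of 15 above both and 1 below, against 1 above and 7 below under spike-in scaling, where the median against NG moved from 0.38 to -0.45. The laminin-332 chain LAMA3 was listed at 80.9, 51.5 and 131 FPKM. Basal and squamous keratins had 6 of 7 above both and 0 below, against 3 and 1 under spike-in scaling, and only KRT5 of these was past the size. KRT14 lay between the parents in L5, at 0.252, 7.70 and 6.27 FPKM. For KRT10 and KRT15 the L5 interval was not separate from those of both parents.

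The ATF4 and stress response list had 16 of 23 genes above both parents and 1 below, against 6 and 10 under spike-in scaling. Its 3 members past the size were ATF3, SLC7A11 and CHAC1, the last an enzyme that breaks down glutathione, at 0.349, 0.597 and 2.79 FPKM. ASNS, asparagine synthetase, was listed at 24.7, 27.5 and 54.8 FPKM, whereas DDIT3 and TRIB3 of the same list lay between the parents. Of the antioxidant list, 16 of 23 lay above both and 3 below, with 4 and 14 under spike-in scaling, and TXNRD1, thioredoxin reductase, was listed at 99.9, 98.0 and 188 FPKM. NQO1, a usual marker gene of the NRF2 response, was listed at 352, 205 and 327 FPKM, between the parents in L5.

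**Figure D3:**
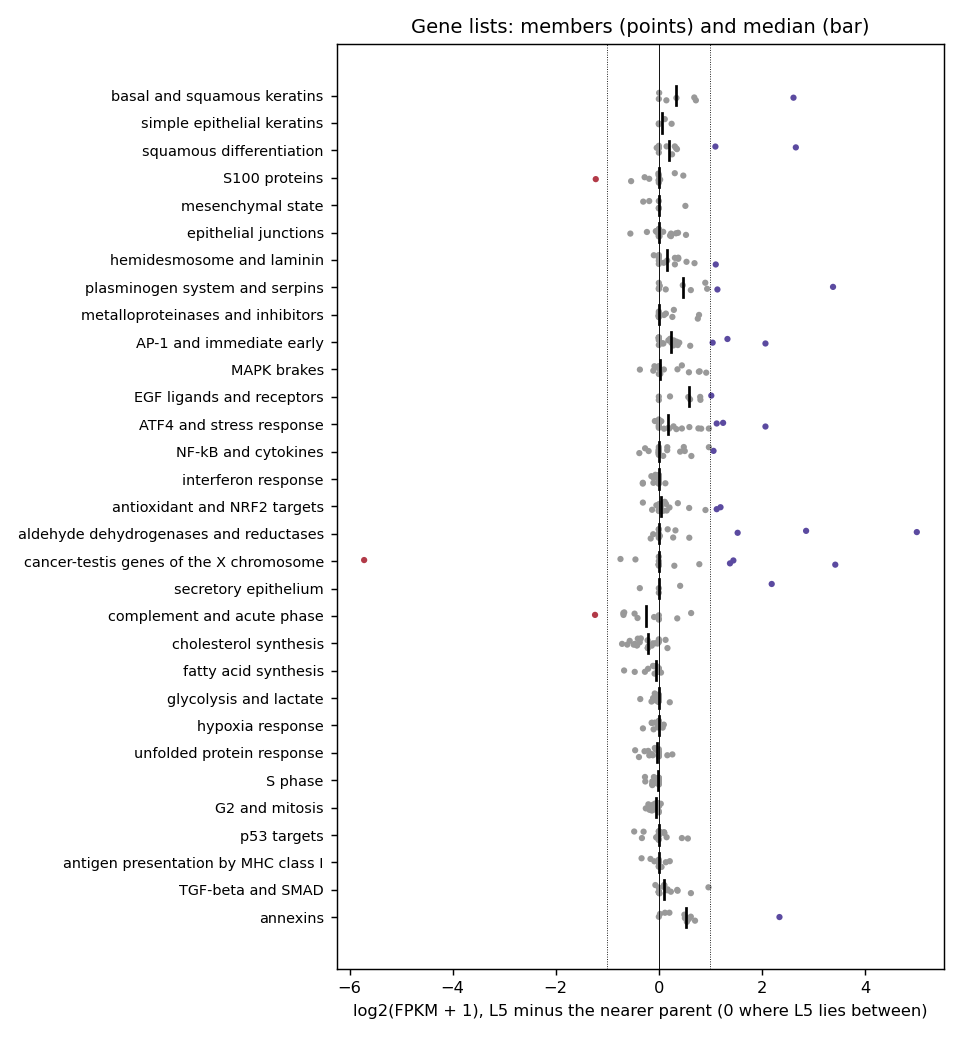
Difference in log2(FPKM + 1) of L5 from the nearer parent for each tested gene (points) of 31 lists, set to 0 where L5 lies between the parents, with the list median as a bar and dotted lines at a size of 1. EGF, annexin and plasminogen lists sit to the right and cholesterol and complement lists to the left on deposited FPKM, and under spike-in scaling the first 3 lists have fewer genes above both parents (3, 4 and 5), as do all genes (2.60%).

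Genes of cholesterol synthesis lay mostly on the lower side, with 18 of 23 below both parents and 2 above, and 23 of 23 below under spike-in scaling, which placed 83.1% of all genes there. None was past the size in the deposited FPKM. HMGCS1, the synthase before the rate-limiting step, was listed at 74.2 (NG), 74.2 (HG) and 44.9 (L5) FPKM, and INSIG1, a sterol-regulated brake on this pathway, at 8.49, 10.1 and 5.21. The list median was -0.22 against NG and -0.53 against HG. In fatty acid synthesis 9 of 15 lay below both and 1 above (15 below under spike-in scaling), with the desaturase SCD at 85.0, 204 and 52.9 FPKM. Complement and acute phase genes had 7 of 12 below both and 2 above (10 and 1 under spike-in scaling), with C3, the central complement protein, at 4.80, 2.69 and 0.566 FPKM. G2 and mitosis genes had 14 of 20 below both and 1 above, and 20 below under spike-in scaling, but their distances were small, with medians of -0.28 against NG and -0.08 against HG. TPM scaling, which sets each library to the same FPKM total, placed 26.6% of all genes below both. Under it 14 cholesterol, 5 fatty acid, 6 complement and 10 G2 and mitosis genes lay below both. The fatty acid median against NG moved from -0.09 to 0.07.

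Mesenchymal genes did not set L5 apart in the same way. Of 6 tested, 1 lay above both parents, 2 below and 3 between, and 0 above and 4 of 7 below under spike-in scaling. VIM, the intermediate filament of mesenchymal cells, was listed at 87.4 (NG), 8.55 (HG) and 67.0 (L5) FPKM, and SNAI2, a transcription factor of epithelial-mesenchymal transition, at 38.3, 30.7 and 55.1. CDH1, E-cadherin, was listed at 53.1, 53.2 and 77.1 FPKM. Lists of interferon response, glycolysis, hypoxia, S phase, p53 targets, unfolded protein response, antigen presentation, TGF-beta, metalloproteinases, epithelial junctions and simple keratins had 0 members past the size. Squamous differentiation had 7 of 12 genes above both and 1 below, 2 of them past the size (SPRR1B and SPRR1A), against 3 and 6 of 11 under spike-in scaling. NF-kB and cytokine genes had 9 of 24 above both and 3 below, with TNFAIP3 alone past the size, against 3 and 12 under spike-in scaling. Aldehyde dehydrogenases and reductases had 8 of 17 above both and 3 below, against 3 and 10 under spike-in scaling, and the 3 past the size were ALDH3A1, DHRS9 and CBR1, a carbonyl reductase listed at 0.122, 0.785 and 4.15 FPKM. Of the X-linked cancer-testis genes, 5 of 16 lay above both, 3 below and 8 between, with 4 above and 3 below under spike-in scaling. MAGEA12, of the same family as MAGEA11, lay between the parents in L5, at 0.0602, 11.4 and 3.02 FPKM.

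Some members lie next to each other. SERPINB2 and SERPINB7, a serpin of skin, are 66.3 kb apart in the serpin B cluster of chromosome 18. A window around SERPINB2, which also took in VPS4B, held 6 tested protein-coding genes. Past the size were these 2 on the higher side and 1 gene on the lower. SERPINB7 was listed at 0.707, 1.09 and 3.35 FPKM, and SERPINB8 at 9.97, 11.2 and 15.8. HMSD, 45.4 kb beyond SERPINB2, went the other way, at 7.83, 1.78 and 0.283 FPKM, and it overlaps SERPINB8. HMSD is not a named gene, because its L5 interval (0.0866 to 0.491) overlapped that of HG (0.429 to 1.34). Its FPKM in NG and in HG also lay outside their own intervals. In the epidermal cluster of chromosome 1, SPRR1A and SPRR1B were higher in L5 and S100A9 lower, among 20 tested genes of a window around SPRR1B. The S100 genes of the cluster had no common order, with S100A8, the partner of S100A9, at 3.46, 162 and 2.07 FPKM and S100A14 at 1.46, 115 and 160.

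**Figure D4:**
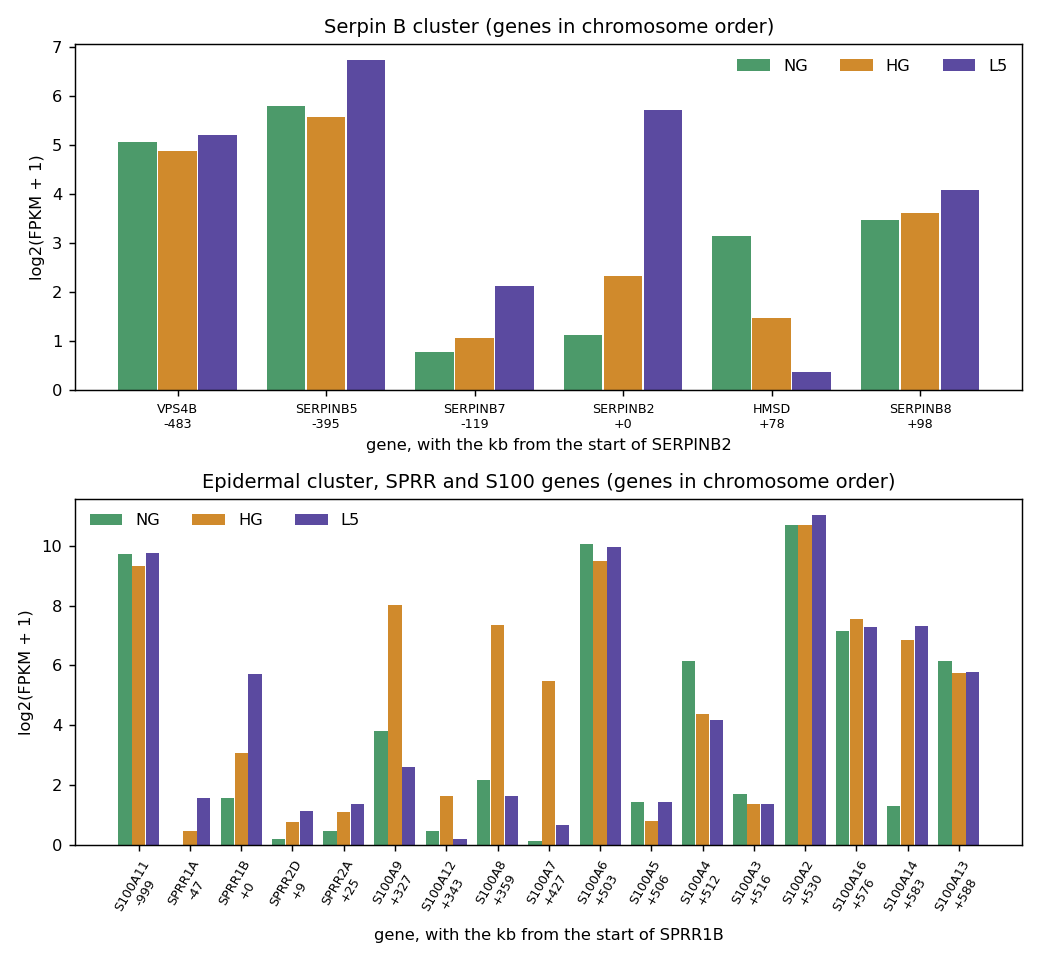
Level as log2(FPKM + 1) of tested genes in and next to the serpin B cluster (top) and of SPRR and S100 genes in the epidermal cluster (bottom), 1 bar per library, with the distance of each gene from SERPINB2 or SPRR1B in kb under its name. SERPINB2 at 51.4 FPKM in L5 and HMSD at 0.283 are neighbours, and S100A8 and S100A9 are high in HG alone. The L5 interval of HMSD overlapped that of HG.

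Over chromosomes and stretches of them L5 also departed from both parents by amounts under the size of the rule. Of 565 genes on chromosome 3 at 5 FPKM or more in 1 library, 466 lay below both parents (82.5%), against 38.6% of the 9403 such genes overall. The median log2 difference on chromosome 3 was -0.46 against NG and -0.33 against HG, against -0.10 and -0.01 for all 9403. The share below both was between 57.5% and 92.5% in each of the 9 bins of 20 Mb along the chromosome with 20 or more genes. On chromosome 9, 47.2% of 373 genes lay above both parents, against 24.4% of all 9403, with uneven shares along it. The share was 19.2% from 0 to 20 Mb and 30.5% from 20 to 40 Mb, and it reached 84.8% from 100 to 120 Mb. On chromosome 15 it was 49.8% of 311 genes, from 27.5% between 80 and 100 Mb to 66.1% between 40 and 60 Mb. On chromosome 1 the share above both was 27.7% of 967 genes, but 76.2% from 60 to 80 Mb. On chromosome 6 the median was -0.35 against HG but -0.02 against NG. These shares depend on the scaling. Spike-in scaling left 2.60% of all genes on the main chromosomes above both parents and 83.1% below. Shares by chromosome were not computed under it. Of the named genes, HES1 and ZBED2 lie on chromosome 3 and were higher in L5, LPAR1 on chromosome 9 and WDR72 on chromosome 15 were higher, and 0 of the 10 lower genes lie on chromosome 3.

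**Figure D5:**
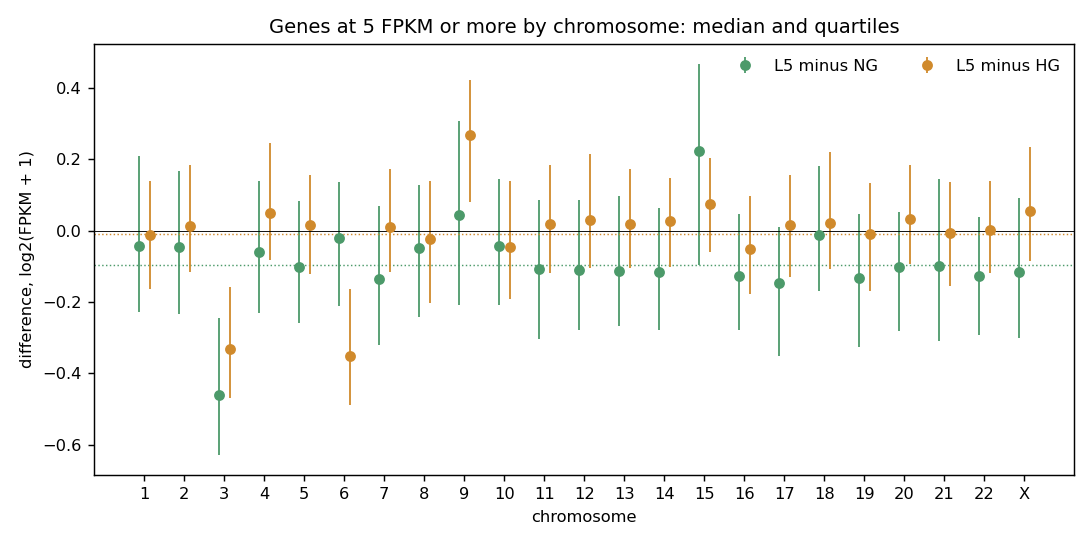
Median (point) and quartiles (line) of the difference in log2(FPKM + 1) of L5 from NG and from HG, by chromosome, over genes at 5 FPKM or more in 1 library, with dotted lines at the median of all 9403 genes. Chromosome 3 lies low against both parents (-0.46 and -0.33) and chromosome 6 against HG alone (-0.35). Chromosome 9 lies highest against HG (0.27, and 0.04 against NG) and chromosome 15 against NG (0.22, and 0.07 against HG).

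The gene values were also read by isoform. Of the 55 named genes, 41 had 2 or more isoforms at 1 FPKM, and in 48 the most abundant isoform (in L5 for higher genes, in NG for lower ones) was itself past the size. That isoform was picked on the side where the gene was high, and gene FPKM sums its isoforms. The choice therefore favours this count. An isoform past the size in the other direction was found in 0 of the 55. Of the 25 named genes at 5 FPKM or more in all 3 libraries, 0 had an isoform whose share of the gene in L5 differed from the mean share in the parents by 20 percentage points or more. Among the other named genes the largest share differences were 51.5 points for DHRS9, 49.7 for ALDH3A1 and 43.0 for ANXA10. All of these were near 0 FPKM in the parents, where shares rest on few fragments.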

How the data were processed

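Poly-A RNA of 1 library per group was sequenced as strand-specific pairs of 100 bp, per the labels. The authors made the FPKM values with BWA, TopHat and Cufflinks on GRCh37, per the submitters' processing notes; versions, and whether strand was used, are not given in the sources used here. Coverage is the deposited read depth per transcript, a signal not scaled by depth, per the file headers, and gave fragments per library at 200 bases per fragment. Deposited transcript lengths (nt) are a further column per the file headers.

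FPKM of gene IDs spread over several loci (112) was summed. Differences are on the log2(FPKM + 1) scale, made here from the deposited FPKM, and understate those of low genes. Counting standard errors take the deposited interval as 2 SD each way. Of 58892 gene IDs listed in all 3 libraries, 745 without status OK in at least 1 were left out. The 92 spike-ins and 28 further IDs listed in L5 alone are not among them and were not tested. Named genes are members at 5 FPKM or more in 1 library with an L5 interval apart from both parents' and a symbol that is not clone-based. Some genes are not reported here. The members and lists were chosen with earlier results of these data known. CD24 and PECAM1 were not found among marker symbols. Gene types came from GENCODE v29 by ID, for 156 of 167 members. Python 3.11.15, pandas 2.3.3, numpy 2.4.6 and matplotlib 3.10.9 were used. Alternatives were other pseudocounts, filters, scalings, isoform sums, gene sets and each parent alone.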

Additional observations from a re-analysis of the deposited data

Results flagged for a closer look

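The L5 table lists 28 gene IDs that the other libraries' tables do not hold, all with a date in place of a symbol, and 18 of them reached 1 FPKM, with 315 FPKM as the highest. They have no value in either parent and were left out of every comparison.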

How the results depend on the processing

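No paired analysis was possible because each group has 1 library and no replicate. Under the alternatives run, none of the named genes changed direction, while under spike-in scaling the medians of 17 of the 31 lists changed sign against NG and those of 16 against HG. Under TPM, median and upper quartile scaling, 7, 4 and 1 changed sign against NG and 0 against HG. With a pseudocount of 0.1 in place of 1, 205 genes were higher in L5 and 107 lower (65.7% higher, against 80.2% of the reported 134 and 33), and 324 set HG apart and 671 set NG apart. With a pseudocount of 5 these were 44, 8, 33 and 103, and 22 of the 55 named genes stayed past the size, ANXA10 and GPR153 of the leading 15 not among them. A minimum of 5 FPKM left 73 higher, and 76 and 185 for HG and NG, among 9403 genes tested in place of 13873. TPM scaling gave 208 higher among 15208 genes tested. Spike-in scaling gave 65 higher and 154 lower (29.7% higher) and 960 for NG, among 14203 genes tested. Under it 23 named genes stayed past the size, 13 higher and all 10 lower. The scaling lowers L5 against both parents, so it could not drop the lower ones. How the spike-ins were added is not given in the sources used here. Longest isoforms of 300 nt or more left 21 lower genes, and separate intervals 19. Against HG alone 274 genes were higher, 104 lower and 23 lists had a member past the size (15 reported); against NG alone these were 316, 337 and 23 (48.4% higher). The causes were not tested. Median and upper quartile scaling and sums by symbol kept all 55 named genes past the size. Isoform sums, main chromosomes alone and no filter did so too. Those last settings leave the value of each named gene unchanged or nearly so, and could not drop any. Intervals cover counting error only, and depth limits genes listed near 0.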
